A study of Drosophila melanogaster with 8 samples.

Results

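Aminoacyl-tRNA synthetases are the enzymes that join each amino acid to its transfer RNA, and 32 of their genes were measured here in the heads of Drosophila melanogaster females that were or were not in reproductive diapause. The genes were chosen by symbol alone: an amino acid abbreviation followed by RS, with -m for the mitochondrial enzyme, alpha- or beta- for a subunit, and GluProRS. The rule found 34 probe sets of 32 genes among the 18769 probe sets tested. By symbol, 18 genes were cytosolic and 14 mitochondrial. A reference table of fly genes holds 35 genes of such a symbol, and the 3 others, AspRS, MetRS and AlaRS-m, were not analysed here. Diapause arrays 1 to 4 and non-diapause arrays 1 to 4 held head RNA from females of the strain Canton S. All females were collected within 8 h of eclosion, kept for 12 days at 12.5 °C with 14 h of light and 10 h of dark, and then sorted by the state of their ovaries. The groups thus shared strain, age, light and temperature, and the labels do not say how many heads or how many separate cultures stand behind an array. The p-values below therefore measure the spread between these 4 and 4 arrays, which may be technical.

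Animal cells run protein synthesis in the cytosol and, for a few proteins encoded by mitochondrial DNA, inside mitochondria, and most amino acids have a separate synthetase gene for each compartment. The enzymes fall into class I and class II by the fold of the catalytic domain, and several cytosolic ones sit in a multi-synthetase complex held together by the AIMP scaffold proteins. Uncharged transfer RNA is sensed by the kinase Gcn2, which acts through the transcription factor crc, the fly counterpart of ATF4. In nerve tissue the enzymes are known through inherited neuropathies, since human variants of the glycyl and tyrosyl enzymes cause axon loss.

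Values are GCRMA expression values on the log2 scale, with 2.16 as the lowest value in the data, and differences are diapause minus non-diapause with n = 4 arrays per group. Levels of different probe sets cannot be compared with each other. Array medians lay between 2.74 and 2.92 and Pearson's r between arrays was 0.976 to 0.998. Non-diapause 3 had the lowest correlations, and on it the mean of 9 midgut protease genes was 2.38 against 8.80 to 10.99 on the other arrays. On diapause 3 the mean of the heat shock genes Hsp26, Hsp27 and Hsp68 was 11.85 against 7.17 to 7.63 elsewhere. The eye genes Arr1, Arr2 and trp had mean values between 13.82 and 15.04, and those of the ovary genes osk, vas, bam and Vm26Aa lay between 2.16 and 2.32, at or near that lowest value. The mean of 6 fat body genes was 14.63 to 14.86 on the diapause arrays and 14.94 to 15.24 on the non-diapause arrays, and that of 5 muscle genes 11.56 to 11.81 and 11.26 to 11.58. The part of such tissue differences in the synthetase values was not tested. In bulk tissue, fewer cells of a type and less RNA per cell cannot be told apart.

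The comparison of diapausing with non-diapausing heads asked which transcripts of the head differ with the reproductive state of the female, here among the synthetase genes. No synthetase gene passed the test. The differences were small, from -0.31 for ProRS-m to 0.11 for CysRS, and 31 of the 32 were under 0.2 in size. In limma with Benjamini-Hochberg adjustment over all probe sets, 0 of 32 genes had an adjusted p under 0.05, the smallest adjusted p being 1, and 0 of 18769 probe sets did so (0%). At unadjusted p under 0.05 there was 1 lower gene, AsnRS, where 2.09% of all probe sets were lower at that p, and 0 higher genes, where 0.906% were higher. In none of the 32 genes were the 4 diapause arrays apart from the 4 non-diapause arrays. Over all probe sets, 1.44% had groups that did not overlap with diapause lower and 0.554% with diapause higher. Many of all probe sets hardly vary, which lowers these shares. Of the 7593 probe sets with a mean of 6 or more, 357 were lower and 137 higher at unadjusted p under 0.05. In 4.32% of them the groups did not overlap in either direction. In 28 of the 32 genes the difference was smaller than the SD between arrays of a group. The same held for 78.9% of the probe sets with a mean of 6 or more and 81.6% of those that varied by more than 0.01.

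For the brighter genes the spread between these arrays bounded the size of a difference at the deposited scaling. As that spread may be technical, the intervals may be too narrow for a change in the flies. Scaling also moved the differences, as the median of the cytosolic genes went from -0.04 to -0.10 when arrays were centred on their medians. The 95% interval of the difference lay within 0.5 to either side of 0 in 16 of the 18 cytosolic genes. It did so in 6 of the 7 mitochondrial genes with a mean of 6 or more. The median distance from a difference to either bound was 0.22 and 0.17 on the log2 scale, against 0.29 over the 7593 bright probe sets (mean 6 or more). Over all 32 genes the count was 28 and the distance 0.20. These include dim genes, whose values can gather at a floor, and a narrow interval there bounds no change. Among the tightest was IleRS, the isoleucyl enzyme, at 10.56 ± 0.05 (SD) in diapause against 10.58 ± 0.08, with an interval of -0.12 to 0.09. The 4 genes with wider intervals were ProRS-m, SerRS, AlaRS and SerRS-m.

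**Figure D1:**
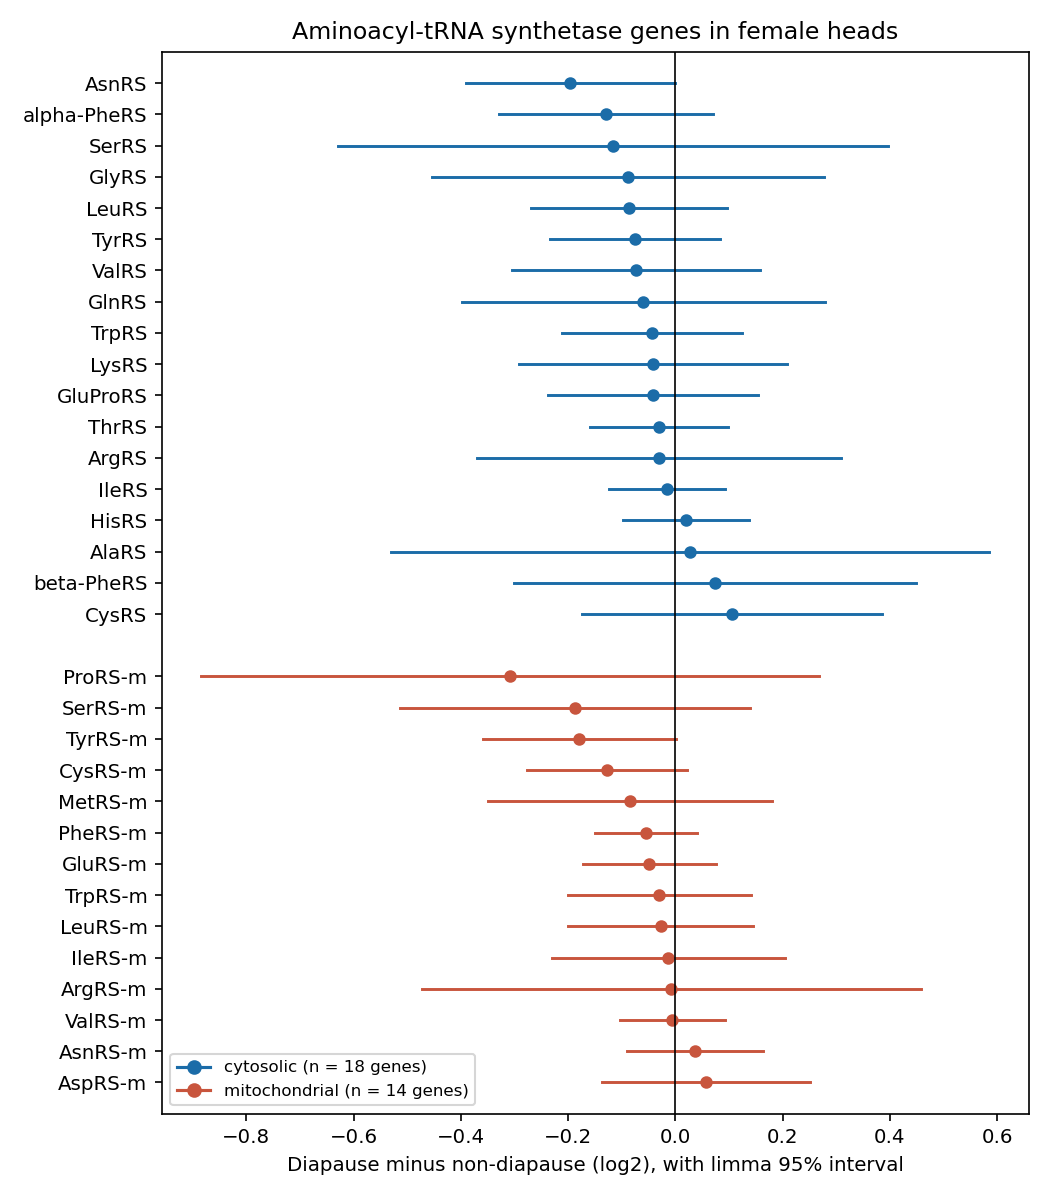
Difference between diapause and non-diapause heads for each of the 18 cytosolic and 14 mitochondrial synthetase genes, as points on the log2 scale with limma 95% intervals as lines (4 arrays per group). All differences lie between -0.31 and 0.11, and the interval of AsnRS, -0.39 to -0.001, is the only one that leaves out 0.

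AsnRS, the asparaginyl enzyme, had the smallest p. It was 10.05, 10.20, 10.15 and 10.26 on diapause arrays 1 to 4 and 10.49, 10.30, 10.20 and 10.46 on non-diapause arrays 1 to 4. The groups overlapped, because non-diapause 3 lay below diapause 4 and just below diapause 2. The difference of -0.20 ± 0.08 (SE), or 87.3% of the non-diapause level, had a limma p of 0.0490 and an adjusted p of 1. Without non-diapause 3, the array that stands apart, it was -0.25 (limma adjusted p = 1). No gene had p under 0.05 when diapause 2, diapause 3 or non-diapause 4 was left out.

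The subunits of the cytosolic phenylalanyl enzyme, which works as a tetramer of alpha and beta chains, differed in opposite directions. For alpha-PheRS, the catalytic chain, the values were 8.11, 8.00, 8.23 and 8.24 in diapause against 8.36, 8.27, 8.10 and 8.38 in non-diapause heads. The difference was -0.13 ± 0.08, and -0.19 without non-diapause 3 (limma adjusted p = 1 for both). For beta-PheRS the values were 7.28, 7.34, 7.54 and 7.42 in diapause against 7.58, 7.58, 7.08 and 7.05 in non-diapause heads. Its non-diapause arrays thus split into a high and a low pair around all diapause arrays, and the difference of 0.07 ± 0.16 was -0.006 without non-diapause 3 and -0.02 without non-diapause 4.

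SerRS and AlaRS varied most between arrays among the cytosolic genes. SerRS, the seryl enzyme, was 9.22, 9.07, 9.78 and 9.65 in diapause against 9.82, 9.57, 9.17 and 9.62 in non-diapause heads. Either group held low and high arrays. The difference of -0.12 ± 0.21 had a 95% interval of -0.63 to 0.40. AlaRS, the alanyl enzyme, was 8.35, 7.98, 8.80 and 8.36 in diapause against 8.67, 8.34, 7.89 and 8.48 in non-diapause heads. Its range over the arrays was 0.91, and its difference was 0.03 ± 0.23. Leaving out diapause 3 or non-diapause 3 turned its direction, at -0.12 in either case.

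CysRS, the cysteinyl enzyme, had the highest difference of all members, 0.11 ± 0.12. Its values were 8.51, 8.36, 8.65 and 8.57 in diapause against 8.53, 8.43, 8.12 and 8.58 in non-diapause heads. Non-diapause 3 was the lowest array, and without it the difference was 0.01. HisRS, the histidyl enzyme, was the remaining cytosolic gene with a higher mean in diapause (0.02), and it turned to -0.002 when diapause 4 was left out and to -0.02 when non-diapause 3 was.

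Of the multi-synthetase complex, 6 of the enzymes were measured and all 6 had a lower mean in diapause, with a median difference of -0.04 and p from 0.297 upward. They were LeuRS (-0.09), GlnRS (-0.06), LysRS (-0.04), GluProRS (-0.04), ArgRS (-0.03) and IleRS (-0.02). GluProRS joins the glutamyl and prolyl enzymes in a single chain. LeuRS, the leucyl enzyme and in mammals also a leucine sensor for TOR, was 8.83, 8.83, 9.12 and 9.05 in diapause against 9.03, 9.06, 9.00 and 9.09 in non-diapause heads. Diapause 1 and 2 were low and diapause 3 was the highest of all arrays. The common sign of the 6 genes was not stable, as each of them except LeuRS turned higher when 1 of certain arrays was left out. LysRS was at 0.02 without non-diapause 3, and ArgRS, GlnRS and GluProRS were at 0.07, 0.03 and 0.01 without diapause 2. The 12 cytosolic genes outside the complex had a median of -0.06, with 8 lower and 4 higher. Their other members were GlyRS (-0.09), TyrRS (-0.08), ValRS (-0.07), TrpRS (-0.04) and ThrRS (-0.03).

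TrpRS was the only gene with several probe sets. The brightest, used here, gave -0.04, the next -0.09, and the dimmest, which stayed between 2.25 and 2.58, gave 0.16. Of the 18 cytosolic genes, 7 of 8 class I genes and 6 of 9 class II genes had a lower mean in diapause, and the medians of these classes were -0.05 and -0.04. GluProRS, which holds an enzyme of each class, was counted in neither.

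**Figure D2:**
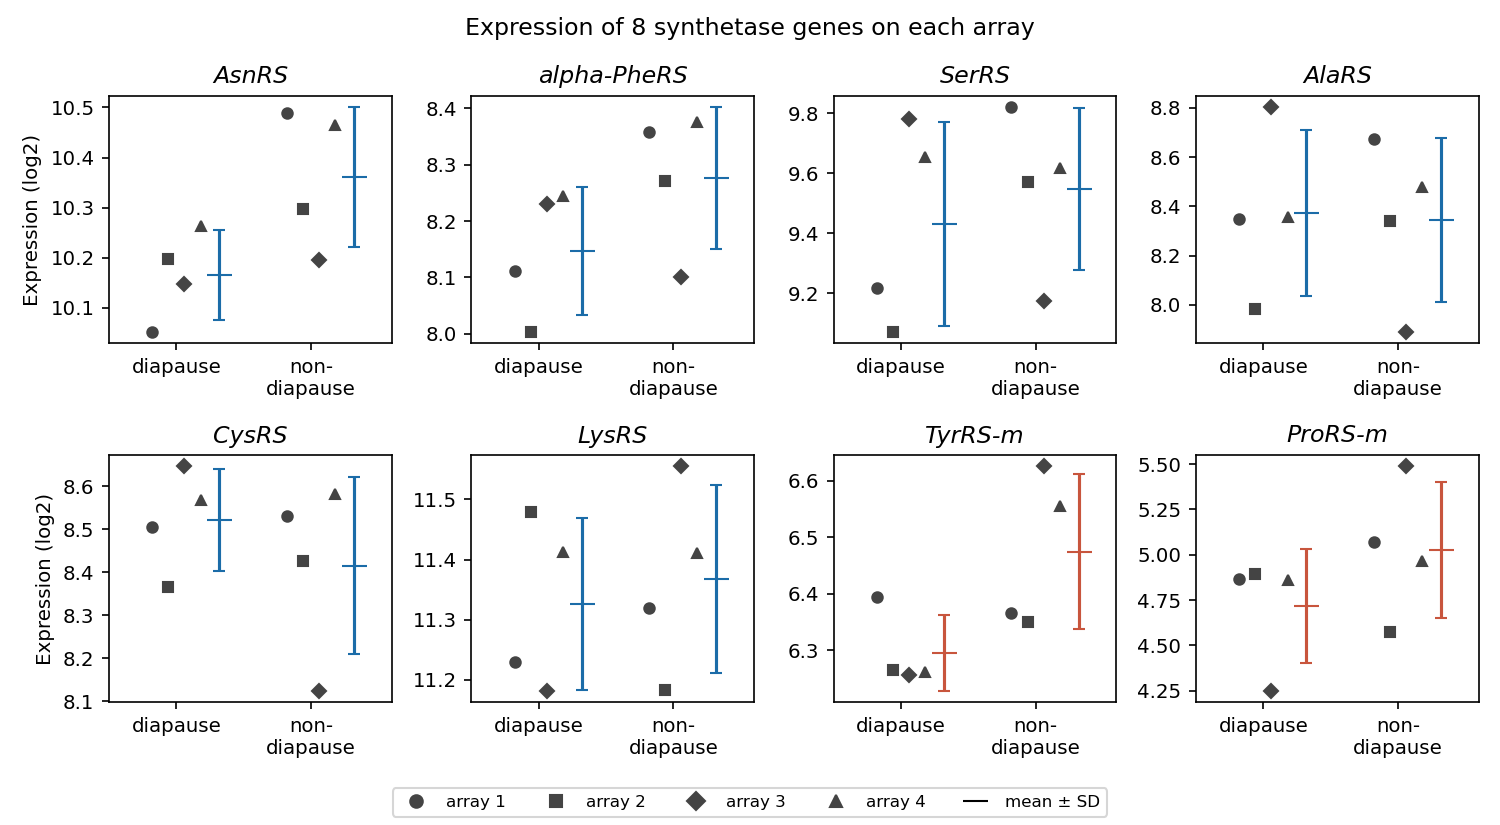
Expression on each array for AsnRS, alpha-PheRS, SerRS, AlaRS, CysRS, LysRS, TyrRS-m and ProRS-m on the log2 scale, a marker shape per array number and the mean ± SD of each group beside the points (n = 4). The groups overlap in every panel, and AlaRS on diapause 2 and non-diapause 3, at 7.98 and 7.89, lies below its other 6 arrays.

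Mitochondrial synthetase genes, whose products serve the translation of the mitochondrial genome, had lower means in diapause in 12 of 14 cases, with a median difference of -0.04, and none had p under 0.05. Many were dim: 7 of the 14 genes had a mean under 6, and MetRS-m, GluRS-m and IleRS-m a mean under 4. For ValRS-m, 6 of the 8 arrays read 4.40, and for GluRS-m 7 arrays read 3.03 or 3.04, values that carry no order. All 18 cytosolic genes had a mean above 6. Over the 7 mitochondrial genes whose mean was 6 or more the median was -0.05. By class, 9 of 9 class I and 3 of 5 class II genes were lower, with medians of -0.03 and -0.05. The common sign of the 9 was not stable, as only TyrRS-m and CysRS-m stayed lower in every alternative fit. The 3 lower class II genes, ProRS-m, SerRS-m and PheRS-m, did so as well.

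ProRS-m, the mitochondrial prolyl enzyme, showed the largest difference of all members, -0.31 ± 0.24, at a low level. It was 4.87, 4.89, 4.25 and 4.86 in diapause against 5.07, 4.57, 5.49 and 4.97 in non-diapause heads. Diapause 3 was the lowest array and non-diapause 3 the highest. Leaving out diapause 3 or non-diapause 3 gave -0.15 in either case. SerRS-m was 6.96, 6.94, 6.72 and 7.33 in diapause against 7.12, 7.20, 7.05 and 7.32 in non-diapause heads. On diapause 4 it exceeded every non-diapause array, and the difference was -0.19 ± 0.14, or -0.10 without diapause 3.

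TyrRS-m, the mitochondrial tyrosyl enzyme, came close to AsnRS in p. It was 6.40, 6.27, 6.26 and 6.26 in diapause against 6.37, 6.35, 6.63 and 6.55 in non-diapause heads. Diapause 1 was above non-diapause 1 and 2, and the other diapause arrays were below all non-diapause arrays. The difference was -0.18 ± 0.07, with a limma p of 0.0503 and an adjusted p of 1, and -0.13 without non-diapause 3. CysRS-m was 8.26, 8.34, 8.25 and 8.35 in diapause against 8.31, 8.35, 8.54 and 8.52 in non-diapause heads. Non-diapause 3 and 4 were the high arrays, and the difference was -0.13 ± 0.06.

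The mitochondrial genes with a higher mean in diapause were AspRS-m and AsnRS-m, both of which turned lower (-0.004 and -0.02) once arrays were centred on their medians. AspRS-m was 7.71, 7.94, 7.68 and 7.79 in diapause against 7.70, 7.62, 7.89 and 7.68 in non-diapause heads, with diapause 2 and non-diapause 3 as the highest arrays (0.06 ± 0.08). AsnRS-m was 5.70, 5.73, 5.60 and 5.67 in diapause against 5.71, 5.57, 5.73 and 5.55 in non-diapause heads (0.04 ± 0.05). The rest were MetRS-m (-0.09), PheRS-m (-0.05), GluRS-m (-0.05), TrpRS-m (-0.03), LeuRS-m (-0.03), IleRS-m (-0.01), ArgRS-m (-0.01) and ValRS-m (-0.01). PheRS-m, a single-chain enzyme, was among the steadiest, with an interval of -0.15 to 0.04.

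A lower mean in 26 of 32 genes compares with 48.7% of the bright probe sets and 51.7% of those that varied by more than 0.01. The median difference of the 32 genes was -0.04 and that of the bright probe sets was 0.004. The members share the same 8 arrays, so that these shares are a description. The count of lower genes moved with the scaling of the arrays, as did that of all bright probe sets. Centring each array on its median gave 30 of 32 lower with a median of -0.10, where 68.0% of the bright probe sets were then lower with a median of -0.06. A second quantile normalization gave 29 of 32 lower with a median of -0.10, where 58.1% were lower with a median of -0.02. Relative to the median of the bright probe sets, the median of the 32 genes was -0.05 as deposited, with 26 of 32 genes below that bright median. Centring shifts the difference of every probe set by the same amount, so it cannot change either value and is no test of them. After a second quantile normalization they were -0.08 and 27 of 32. The count of lower genes also rested on single arrays, with 18 of 32 genes lower when diapause 2 was left out and 20 when non-diapause 1 was. Without non-diapause 3 it was 24. The median over cytosolic genes, -0.04, came to -0.001 when diapause 2 was left out, -0.0009 when non-diapause 1 was and -0.10 when non-diapause 3 was. It was -0.05 without LysRS, GlyRS, HisRS and ThrRS, counted here as genes that may serve both compartments.

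For 9 amino acids a cytosolic and a mitochondrial gene could be set against each other within each array, which asks whether the compartments changed unequally. After adjustment over the 9 pairs, no single pair could have reached 0.05, since the smallest adjusted p that 1 pair alone allows is 0.257, and the gaps are given as values. The exact permutation test over the 70 assignments of 4 arrays against 4, 2-sided, can give p = 0.0286 at the least, and the smallest p of the 9 pairs was 0.114 (adjusted p = 1). That was the asparaginyl pair, with -0.20 for AsnRS and 0.04 for AsnRS-m, a gap of -0.23 ± 0.11 (SE). The cysteinyl pair came next, with 0.11 for CysRS and -0.13 for CysRS-m and a gap of 0.23 ± 0.16 (exact p = 0.229). The leucyl pair followed at -0.06 ± 0.08 (exact p = 0.429), with LeuRS-m at 7.83, 7.66, 7.82 and 7.92 in diapause against 7.94, 7.82, 7.70 and 7.86 in non-diapause heads. LeuRS-m had its 2 lowest arrays on diapause 2 and non-diapause 3, the only 1 of the 14 mitochondrial genes to do so. The gaps of the tyrosyl (0.10), valyl (-0.07), seryl (0.07), arginyl (-0.02), tryptophanyl (-0.01) and isoleucyl (-0.003) pairs had exact p from 0.457 to 1. The SEs of the 9 gaps ran from 0.08 to 0.29. In the asparaginyl, valyl, arginyl and isoleucyl pairs the mitochondrial gene was dim, with a mean under 6. A small gap there does not show that both genes changed alike. After a second quantile normalization the asparaginyl gap was -0.12 and the isoleucyl gap 0.15.

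**Figure D3:**
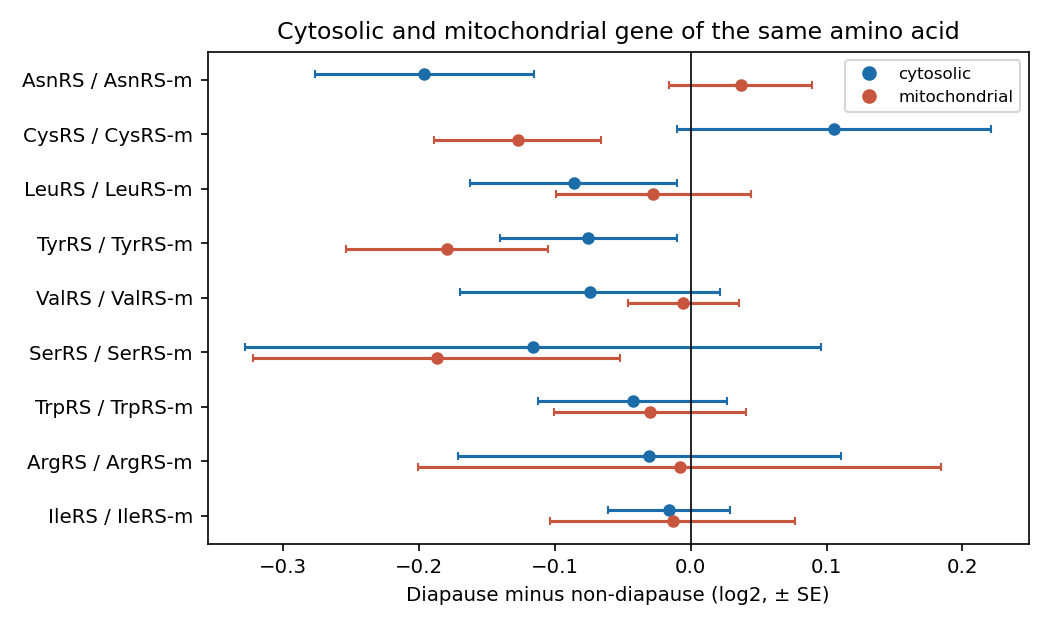
Difference between diapause and non-diapause heads (log2, ± SE) of the cytosolic and the mitochondrial gene for the 9 amino acids with 1 of each. The points of a pair lie farthest apart for the asparaginyl (-0.20 and 0.04) and cysteinyl (0.11 and -0.13) enzymes. The arginyl, isoleucyl and tryptophanyl pairs nearly coincide, though ArgRS-m and IleRS-m are dim.

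The mean of the cytosolic synthetase genes varied more between arrays of a group than between the groups. It was 8.98, 8.88, 9.10 and 9.07 on diapause arrays 1 to 4 and 9.19, 9.03, 8.89 and 9.09 on non-diapause arrays 1 to 4. The group means of 9.01 ± 0.10 and 9.05 ± 0.13 differed by -0.04, while the range over the arrays was 0.31. Diapause 2 and non-diapause 3 were the low arrays, at 90.2% and 90.7% of each gene's own geometric mean, and non-diapause 1 the high one, at 112%. Relative to the mean deviation of all bright probe sets, the deviation was -0.16 on diapause 2, -0.07 on diapause 1 and -0.06 on non-diapause 3. After a second quantile normalization it was -0.17 on diapause 2, -0.12 on non-diapause 3 and -0.06 on diapause 1. Whether non-diapause 3 was among the 2 lowest thus depended on the baseline. On diapause 2, 16 of the 18 genes were below their own mean, and on non-diapause 3, 14 of 18. Of the bright probe sets, 47.8% and 43.7% were below their own mean on these arrays. On non-diapause 1, 17 of 18 genes were above their own mean, where 57.2% of the bright probe sets were below theirs.

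In 9 of the 18 cytosolic genes, diapause 2 and non-diapause 3 were the 2 lowest of the 8 arrays, against 14.8% of all bright probe sets. These were alpha-PheRS, SerRS, GlyRS, GlnRS, GluProRS, ArgRS, HisRS, AlaRS and CysRS. They were 3 of the 6 genes of the complex and 6 of the 12 outside it, 50% of each. The complex scaffold genes AIMP1 and AIMP2 had the same 2 lowest arrays, and AIMP3 did not. So did Elp3 and La, 2 of 8 measured genes for making and maturing transfer RNA, and 0 of 7 genes of the amino acid response. This pair of arrays was picked after the values were seen, and genes measured on the same arrays are not independent. LysRS, the lysyl enzyme, ran the other way: it was 11.23, 11.48, 11.18 and 11.41 in diapause against 11.32, 11.18, 11.56 and 11.41 in non-diapause heads, so that its 2 highest arrays were non-diapause 3 and diapause 2. Such a pattern was found in 23.9% of the bright probe sets.

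Mitochondrial genes followed another order. Their mean was 5.99, 5.98, 5.86 and 6.02 on diapause arrays 1 to 4 and 5.99, 5.94, 6.13 and 6.05 on non-diapause arrays 1 to 4, lowest on diapause 3, where 13 of 14 genes were below their own mean, and highest on non-diapause 3. Over the 7 mitochondrial genes whose mean was 6 or more, diapause 3 was again the lowest array (7.44), with all 7 below their own mean, and non-diapause 4 the highest (7.65). On non-diapause 3 the cytosolic genes deviated by -0.14 on average and the mitochondrial genes by 0.14. The mean deviation of all bright probe sets there was -0.08, though only 43.7% of them were below their own mean. Over the 7 mitochondrial genes whose mean was 6 or more the deviation on non-diapause 3 was 0.07, so the dim genes carried much of the 0.14. After a second quantile normalization the deviation on this array was -0.12 for the cytosolic genes, 0.29 for all mitochondrial genes and 0.12 for those 7.

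Other measures of these arrays moved in part with this pattern. The mean of the eye genes Arr1, Arr2 and trp was highest on non-diapause 3 and diapause 2 (14.78 and 14.76, against 14.46 to 14.63 on the others). These were also the 2 highest arrays in 23.9% of the bright probe sets, so such an order was common. The mean of the head neuron genes brp, elav and nSyb was highest on diapause 2 (9.04) but 8.45 on non-diapause 3, below diapause 4 (8.65) and non-diapause 4 (8.77). The 3 prime minus 5 prime signal of the actin control was 5.42 on diapause 2 and 5.40 on non-diapause 3, within the range of 5.04 to 5.90 over the arrays. Diapause 3 had the lowest such value in all 4 controls, and non-diapause 3 the highest for 18S RNA (2.72). The part of cell makeup or RNA quality in the array pattern was not tested.

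**Figure D4:**
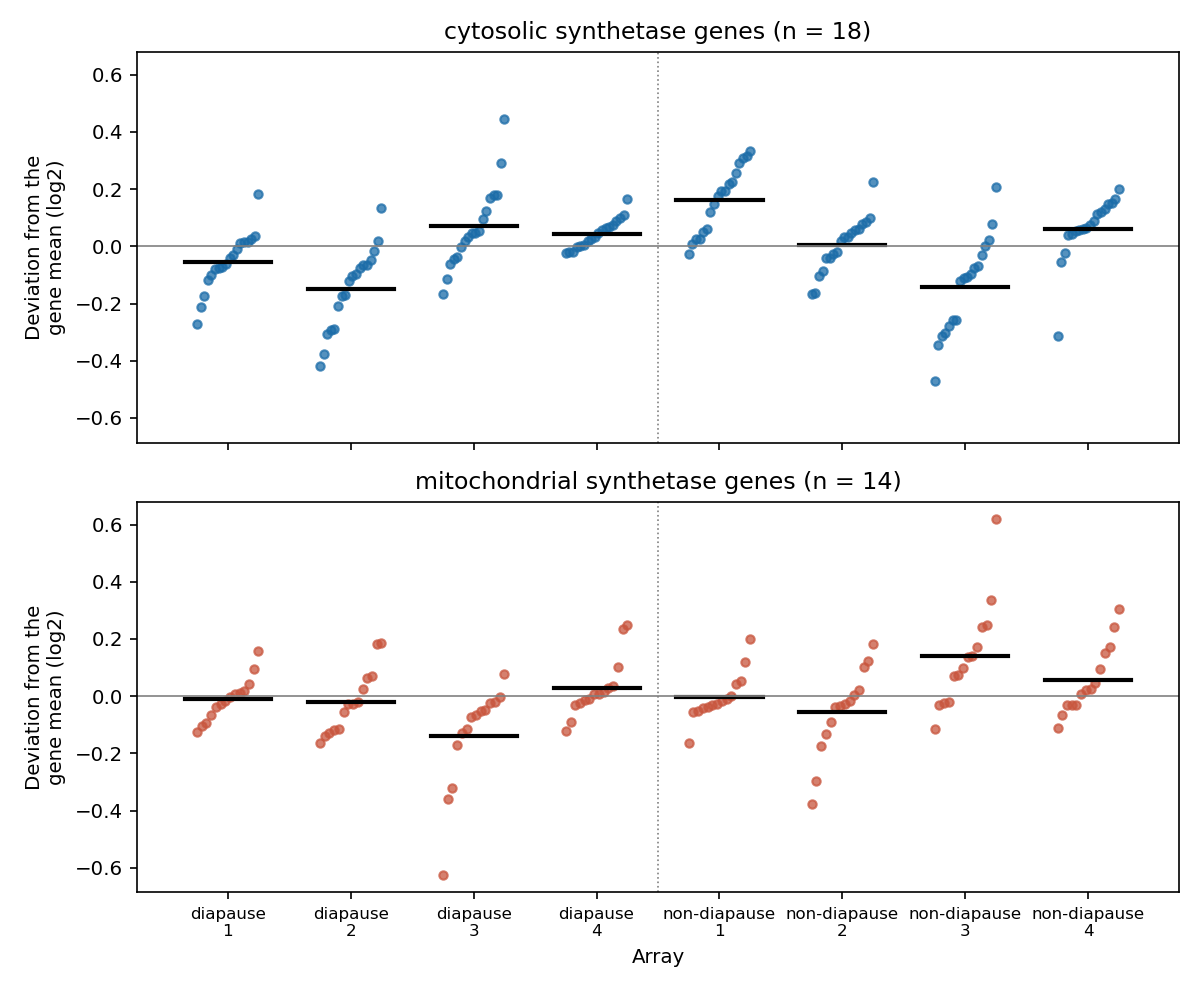
Deviation of each synthetase gene from its own mean over the 8 arrays (log2), a point per gene and the mean of the group as a black line, for the 18 cytosolic (top) and 14 mitochondrial genes (bottom). Cytosolic genes are low on diapause 2 (-0.15) and non-diapause 3 (-0.14) and high on non-diapause 1 (0.16), whereas mitochondrial genes are low on diapause 3 (-0.14) and high on non-diapause 3 (0.14).

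Genes that work with the synthetases did not pass the test either. Of 6 measured partners, 3 had a lower and 3 a higher mean in diapause, 0 had p under 0.05, and the differences ran from -0.06 to 0.06. AIMP1, AIMP2 and AIMP3 stood at -0.04, -0.06 and 0.003, GatB, a subunit of the mitochondrial enzyme that makes glutaminyl transfer RNA, at 0.06, CG1750 at 0.03, and Slimp, a paralogue of the seryl enzyme found in mitochondria, at -0.06. Of 7 measured genes of the amino acid response, 0 had p under 0.05. The kinase gene Gcn2 was 7.14 ± 0.18 in the diapause group against 7.14 ± 0.13, and crc was 13.58 ± 0.07 and 13.59 ± 0.06, with a 95% interval of -0.12 to 0.09. The asparagine synthetase gene AsnS, a target of ATF4 in mammals, was 9.20 ± 0.65 and 9.56 ± 0.29, a difference of -0.37 with a 95% interval of -1.20 to 0.47. It was 9.27, 8.42, 10.00 and 9.10 on diapause arrays 1 to 4 and 9.94, 9.34, 9.34 and 9.65 on non-diapause arrays 1 to 4. Diapause 2 was the lowest and diapause 3 the highest of all 8 arrays. The kinase gene PEK (0.03), the phosphatase subunit gene PPP1R15 (-0.0001), the sestrin gene Sesn (0.16) and trbl (0.15) completed that list.

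Of 8 measured genes for making and maturing transfer RNA, 4 had a lower and 4 a higher mean in diapause, and 0 had p under 0.05. RNaseZ, which trims the end of the precursor, was at -0.13, the polymerase III factor gene Brf at -0.08 and its repressor gene Maf1 at 0.04. La, which binds new polymerase III transcripts, was at 0.02, CG2100 at -0.11, Elp3 at 0.10, and the modification genes Mt2 and Tgt, both dim, at -0.13 and 0.01. The median differences of the 3 lists were -0.02, 0.003 and -0.03, and all their adjusted p in limma were 1.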

How the data were processed

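Total RNA of heads was hybridised as biotin-labelled cRNA, made from 6 µg, to 1-colour GeneChip Drosophila arrays, 4 per group. The authors deposited a log2 value for every probe set on each array, from GCRMA per the submitters' processing notes. The sources used here do not name its version. The method corrects background, normalizes arrays by quantiles and summarises probes, so small differences depend on array scaling and dim values gather at a floor. Groups and replicate numbers came from the sample titles. The number of arrays limits the precision.

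Genes were named by the platform annotation. Of 18769 probe sets left after 183 controls were set aside, 13647 had 1 symbol, 402 several and 4720 none. All 34 synthetase probe sets matched the Release 6 gene table by identifier. Probe sets of IleRS, ValRS and ThrRS carry the suffix of sets that share probes with other transcripts. Where a gene had several probe sets, the brightest over the 8 arrays stood for it.

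The group comparison used limma 3.58.1 (R 4.3.3; lmFit and eBayes, default prior, 2-sided), with Benjamini-Hochberg adjustment over all 18769 probe sets and a threshold of 0.05. The prior had 0.327 degrees of freedom. This fit was first tested on simulated data. Gaps within pairs were compared by an exact permutation test. Alternatives were a replicate block, filters at a mean of 4 and 6, limma-trend, a second quantile normalization, median centring, array weights, the mean of a gene's probe sets, genes of both compartments left out, and each array left out. The genes, lists and tests were chosen with earlier results of these data known. All genes of the rule were named. Array values were given for genes at p under 0.05, the 3 largest differences per direction and compartment and the 3 pairs of smallest p, and LysRS and AsnS were added after their values were seen.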

Additional observations from a re-analysis of the deposited data

Results flagged for a closer look

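The 32 synthetase genes, the 21 genes of the other lists and the cytosolic and mitochondrial means gave 110 groups of 4 arrays. In 13 of these, 1 array stood apart from the other 3 by Dixon's criterion at the 95% level. Chance meets it in about 5% of groups of normal values. Dim values that gather at a floor are not normal, and the groups share the same arrays. The count of 13 therefore cannot be read against that 5%. GluProRS was 9.70 on diapause 2 and 9.89 to 9.92 on the other diapause arrays. ProRS-m was 4.25 on diapause 3 against 4.86 to 4.89, and TyrRS-m 6.40 on diapause 1 against 6.26 to 6.27. Among dim genes, GluRS-m was 3.24 on non-diapause 2 against 3.03 to 3.04, and IleRS-m 3.97 on non-diapause 3 against 3.80 to 3.81. ValRS-m was 4.51 on diapause 3 and 4.53 on non-diapause 3, against 4.40 on the other arrays of either group. In the other lists, Slimp was 4.53 on diapause 3 against 4.62 to 4.64, Sesn 10.46 on diapause 3 against 9.85 to 9.92, and trbl 6.48 on non-diapause 4 against 6.71 to 6.75. Among the dimmest genes, Mt2 was 2.28 on diapause 4 against 2.42 to 2.43 and 2.80 on non-diapause 1 against 2.42, and Tgt 3.08 on non-diapause 3 against 3.09.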

How the results depend on the processing

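No synthetase gene reached an adjusted p of 0.05 under any alternative, the smallest being 0.340 (median centring). Over all probe sets the adjusted count, 0, became 2 lower after a second quantile normalization, 1 after centring, 4 with array weights, 1 with probe sets averaged per gene, and 0 to 2 higher when arrays were left out. The 1 lower gene at p under 0.05 became 0 with a mean of at least 4 or 6, 4 after a second quantile normalization, 6 after centring, 2 with array weights and 0 to 2 without single arrays. With a replicate block it became 0. The share of all probe sets lower at that p also rose. It was 2.09% in the main fit, 4.02% after a second quantile normalization and 5.35% after centring. Same-numbered arrays did not deviate together (r of -0.62 to 0.06), and arrays of different number had r of -0.44 to 0.42. With such a spread these r cannot decide whether the numbers pair the arrays, and the labels do not say. The median of the mitochondrial genes moved to -0.15 after a second quantile normalization. The sign held under all alternatives in 10 of 32 genes. After a second quantile normalization the sign turned for HisRS (-0.014), AlaRS (-0.016), AsnRS-m (-0.090), ValRS minus ValRS-m (0.067), TrpRS minus TrpRS-m (0.011), ArgRS minus ArgRS-m (0.059) and IleRS minus IleRS-m (0.15). After median centring the sign turned for HisRS (-0.041), AlaRS (-0.034), AsnRS-m (-0.025) and AspRS-m (-0.0042). With array weights the sign turned for ThrRS (0.030), ArgRS (0.029), AlaRS (-0.052), TrpRS-m (0.019), LeuRS-m (0.010) and IleRS-m (0.10). With the probe sets of a gene averaged the sign turned for TrpRS (0.0070) and TrpRS minus TrpRS-m (0.037). The genes whose sign turned when an array was left out had differences over those fits of SerRS -0.24 to 0.0039, GlyRS -0.20 to 0.00025, ValRS -0.14 to 0.010, GlnRS -0.16 to 0.028, LysRS -0.10 to 0.021, GluProRS -0.084 to 0.016, ThrRS -0.066 to 0.0049, ArgRS -0.12 to 0.067, IleRS -0.053 to 0.0056, HisRS -0.017 to 0.050, AlaRS -0.12 to 0.16, beta-PheRS -0.017 to 0.16, MetRS-m -0.16 to 0.012, GluRS-m -0.067 to 0.0041, TrpRS-m -0.087 to 0.022, LeuRS-m -0.070 to 0.022, IleRS-m -0.093 to 0.030, ArgRS-m -0.13 to 0.098 and ValRS-m -0.032 to 0.027. The cause of these changes was not tested.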
